A study of Mus musculus with 30 samples.

Results

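The LIM-only factors Lmo1, Lmo2, Lmo3 and Lmo4 and the LIM-binding partners Ldb1 and Ldb2 were followed in newborn and embryonic mouse cortex with and without Tbr1. These 6 genes were taken from the 16553 genes found in both deposited expression tables. Each gene was represented by the probe set that named it alone, chosen by the highest mean signal over the arrays of its table, and all 6 were found in both tables. At P0.5 each had 1 such probe set. At E14.5 the same held except for Ldb2, which had 3, with mean log2 signals of 7.46 for the one used and 5.81 and 3.64 for the others. The 6 genes were picked with earlier results of these data known.

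Tbr1 is a T-box transcription factor of early-born cortical neurons, and the study asked what its loss does to neurons of the developing neocortex. The animals had a CD1 background. Homozygous nulls (KO), bred from heterozygous parents, were compared with wild type (WT). At E14.5 neocortex was measured on 3 KO and 3 WT arrays. At P0.5 there were 4 KO and 4 WT arrays for each of 3 pieces of brain, frontal, parietal and occipital. The null allele is carried by every cell, so no cell type or stage is singled out by the model. The labels do not state sex or pooling, or if arrays with the same number in several regions stem from 1 animal, and p-values therefore measure only the spread between these samples.

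LIM domains are zinc-binding folds that hold proteins together. LIM-only factors consist of little more than these domains and bind no DNA by themselves. The Ldb proteins dimerise and bind LIM domains of both LIM-only and LIM-homeodomain factors, so that both classes compete for the same partner. In newborn mouse cortex Lmo4 is known for expression that differs between areas and for its presence in callosal and other projection neurons, Ldb2 is used as a marker of deep-layer subcerebral neurons, and Lmo2 is best known from blood and vessel cells.

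Values are log2 signals, on which 1 unit is a doubling, as deposited. Differences were tested with limma over all 19938 genes at P0.5 or 18194 at E14.5, two-sided, and genes with a Benjamini-Hochberg adjusted p below 0.05 were called. The array medians lay between 7.42 and 7.52 at P0.5 and between 5.12 and 5.15 at E14.5. Tbr1 itself was lower in KO tissue in each P0.5 region, by -0.63 in frontal, -0.58 in parietal and -0.84 in occipital tissue (limma adjusted p = 0.00189, 0.00887 and 0.000293), with no overlap of the arrays. At E14.5 it lay between 7.23 and 8.69 in KO and between 8.89 and 9.36 in WT (-1.29, limma adjusted p = 0.85). Of 6 listed markers of cortical projection neurons, 4 were measured at P0.5 (Neurod6, Neurod2, Emx1 and Bcl11b), with a mean level between 9.82 and 10.18 on every array. Single genes of that list moved: Neurod6 was called lower in KO frontal tissue (-0.46, limma adjusted p = 0.00626), where Lmo4 and Ldb2 were also lower, in KO occipital tissue (-0.43, 0.0284) and over the regions (-0.40, 0.000139), and Bcl11b was called higher over the regions (0.18, 0.0342). Their part in the results below was not tested.

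Markers of other cells and tissues that the pieces could hold were read by list at P0.5. The mean levels of 6 striatal, 8 interneuron, 5 thalamic and 2 red blood cell genes overlapped between KO and WT in each region, although single genes were called. Drd1 of the striatal list was called lower in KO in all 3 regions and Ppp1r1b in frontal and parietal tissue, while Penk of that list and Prkcd of the thalamic list were called higher in KO frontal tissue. The mean of 4 hippocampal genes was 7.99 to 8.21 in KO and 8.31 to 8.35 in WT frontal tissue, and overlapped in the other regions. The mean of 6 microglia genes was 7.78 to 7.90 in KO and 7.33 to 7.76 in WT occipital tissue, and overlapped elsewhere, although C1qa and C1qb were called higher in KO frontal tissue (0.47 and 0.71, limma adjusted p = 0.0158 and 0.0232) and C1qa, C1qb and C1qc over the regions. Their part in the results that follow was not tested.

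An imbalance between arrays touches the P0.5 results. All 4 KO frontal arrays had a high signal of Xist, the RNA of the inactive X chromosome (11.96 to 12.20), and all 4 WT frontal arrays a low one (5.65 to 6.39). The mean of 3 Y-linked genes was 5.39 ± 0.41 (SD, n = 4) in KO and 9.04 ± 0.07 in WT frontal tissue. In frontal tissue genotype and these sex-linked signals cannot be told apart within the region. Xist was over 10 on 2 KO parietal arrays (numbers 2 and 4) and 1 WT parietal array (number 2). In occipital tissue KO array 3 had high Xist (12.00) and a low Y-linked mean (5.88), KO arrays 1, 2 and 4 read 5.43, 7.75 and 8.77 for Xist, and the 4 WT arrays read 5.73 to 6.24. Results were repeated with the Y-linked level in the model as a covariate and without those parietal arrays. The Y-linked mean also changed between regions within every KO number and within WT number 2. On KO arrays of number 1 it was 5.09 in frontal, 9.11 in parietal and 9.32 in occipital tissue. For these numbers, averages over the regions therefore cannot be read as values of 1 animal.

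In frontal tissue 2 of the 6 genes were called for KO against WT, Lmo4 and Ldb2, both lower in KO, while 7.52% of all genes were called there. That background moved with the setting, from 1499 genes to 247 with the Y-linked covariate, 687 with only the arrays compared, 2606 with array weights and 749 to 2454 with 1 array left out. In parietal tissue 2 were called, Lmo3 lower and Lmo4 higher in KO, against 1.81% of all genes (361, and 122 to 1241 under the other settings). In occipital tissue none of the 6 was called by limma, 2 had an unadjusted p under 0.05, every other setting run also called 0, and 1.34% of all genes were called. With the 3 same-numbered arrays averaged first, Lmo2 alone was called over the regions, lower in KO, against 7.46% of all genes. The median size of the difference over the 6 genes was 0.334 in frontal, 0.196 in parietal and 0.0551 in occipital tissue, and over all genes 0.135, 0.0693 and 0.0811.

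Lmo4, an adaptor that lacks DNA binding and brings Ldb proteins and other cofactors together, was lower in KO frontal tissue and higher in KO parietal tissue. In frontal tissue its log2 signal was 11.49, 11.23, 10.73 and 11.15 on KO arrays 1 to 4, and 11.80, 11.92, 11.27 and 11.92 on WT arrays. Of the WT arrays 3 lay above every KO array, and WT array 3 lay within the KO range. The difference was -0.58 (SE 0.128, 95% interval -0.84 to -0.31, 1.49-fold lower in KO, limma adjusted p = 0.00529), and the call held when any 1 frontal array was left out (largest adjusted p = 0.0314). It was lost when only the 8 frontal arrays were fitted (adjusted p = 0.0741).

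In parietal tissue the order was turned. Lmo4 read 11.84, 11.94, 11.84 and 11.84 on KO arrays and 11.53, 11.45, 11.21 and 11.33 on WT arrays, with no overlap. The difference was 0.48 (SE 0.128, 95% interval 0.22 to 0.75, 1.4-fold higher in KO, limma adjusted p = 0.0465). The call lies close to the threshold and was lost when any of 7 of the 8 parietal arrays was left out, all but WT array 1, with differences of 0.43 to 0.51 and adjusted p of 0.0808 to 0.185, and with no intensity trend (adjusted p = 0.0666). The 2 KO parietal arrays with Xist over 10 read 11.94 and 11.84, and the other 2 read 11.84 and 11.84.

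In occipital tissue Lmo4 did not separate the genotypes. KO arrays read 11.53, 11.62, 11.54 and 11.69, and WT arrays 11.69, 11.77, 11.38 and 11.58. The difference was -0.014 (95% interval -0.28 to 0.25, limma adjusted p = 0.983). Averaged over the regions it was -0.035 (95% interval -0.21 to 0.14, limma adjusted p = 0.861), so an average over tissue shows neither of the regional differences.

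**Figure D1:**
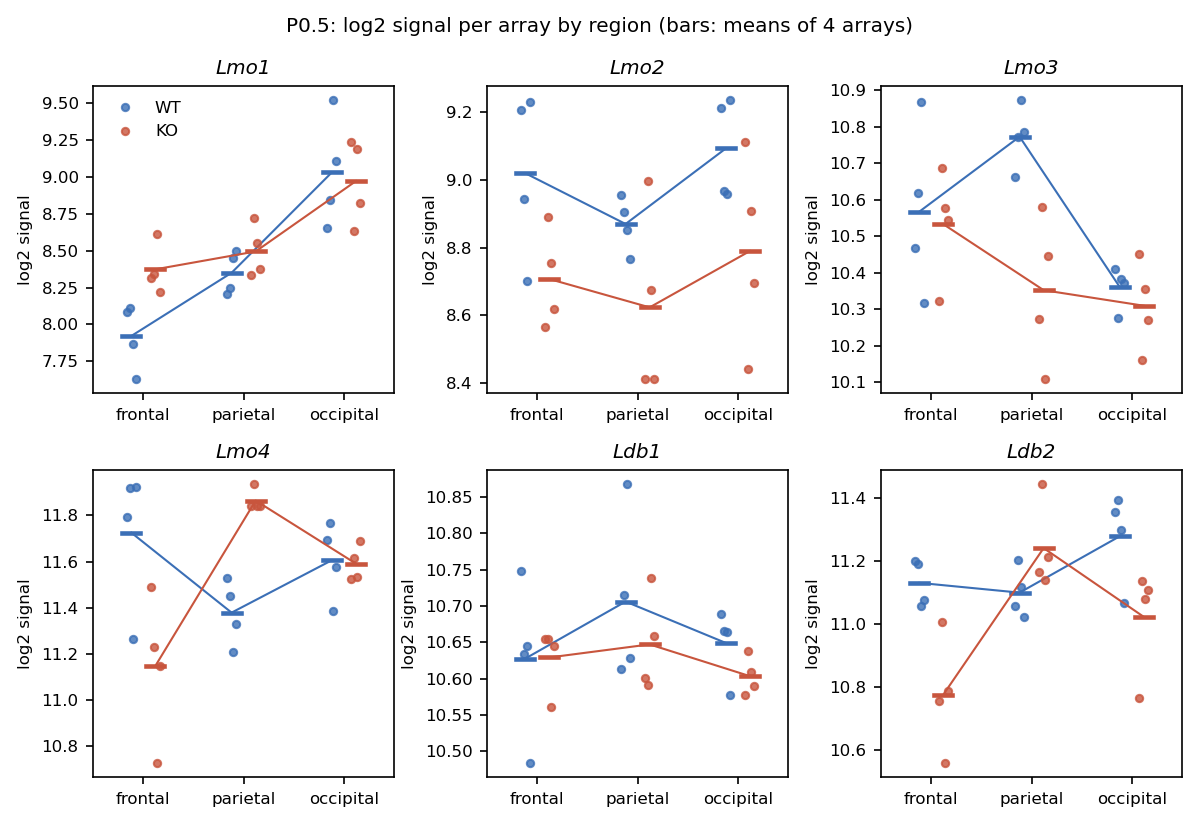
Log2 signal at P0.5 of each of the 6 genes, 1 point per array, by region on the horizontal axis, for WT (blue) and KO (red), with bars at the means of 4 arrays and each gene on its own vertical scale. Lmo4 means run 11.73, 11.38 and 11.61 from frontal to occipital tissue in WT and 11.15, 11.86 and 11.59 in KO, so the lines cross, while the Ldb1 means of both genotypes stay between 10.60 and 10.71.

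Whether the KO effect was the same in the 3 regions was tested directly. The F test over regions called Lmo4 alone among the 6 genes (limma adjusted p = 0.0237), and it called 32 of 19938 genes, or 0.16%. The Lmo4 effect in frontal minus that in parietal tissue was -1.06 (SE 0.181, 95% interval -1.43 to -0.69, limma adjusted p = 0.037). Lmo4 was the only 1 of the 6 called for this difference, which called 2 genes in all, or 0.01%. The frontal minus occipital difference of the effect was -0.56 for Lmo4 (limma adjusted p = 0.143) and called 0 of the 6 by limma, with 2 at an unadjusted p under 0.05, against 0.416% of all genes. The parietal minus occipital difference was 0.50 (limma adjusted p = 1). It also called 0 of the 6, with 3 at an unadjusted p under 0.05, against 0.01% of all genes.

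The size of the Lmo4 interaction was steadier than its call. With the covariate for Y-linked signal the frontal minus parietal difference was -1.09 (limma adjusted p = 0.152), the frontal effect -0.61 (adjusted p = 0.102), the parietal effect 0.47 (adjusted p = 0.0883) and the F test's adjusted p = 0.1. Without the 3 parietal arrays with high Xist the difference was -1.06 (limma adjusted p = 0.35), the parietal effect 0.48 (adjusted p = 0.423) and the F test's adjusted p = 0.109. Leaving out 1 array at a time gave -1.22 to -0.92, and the call was lost in 13 of 16 cases (largest adjusted p = 0.159), as it was with array medians subtracted (0.06) or no intensity trend (0.0815). The F test lost its call in 5 of 24 cases (largest 0.0653), those without KO frontal array 4, WT frontal arrays 2 or 4, or WT parietal arrays 3 or 4.

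The regional order of Lmo4 differed between the genotypes. In WT the means ran from frontal (11.73 ± 0.31, SD, n = 4) over occipital (11.61 ± 0.17) to parietal tissue (11.38 ± 0.14), a range of 0.35, and each pair of regions overlapped. In KO they ran from parietal (11.86 ± 0.05) over occipital (11.59 ± 0.08) to frontal tissue (11.15 ± 0.32), a range of 0.72, and no pair of regions overlapped. KO frontal tissue lay below KO parietal tissue by 1.64-fold (-0.72, 95% interval -0.98 to -0.45, limma adjusted p = 0.012). The call was lost without KO frontal array 3 (adjusted p = 0.0875) or KO parietal array 4 (0.0584), and without the high-Xist parietal arrays (-0.69, adjusted p = 0.203). This comparison called Lmo4 and Ldb2, 2 of the 6 genes, against 0.236% of all genes. WT frontal against parietal tissue called 0 of the 6 by limma, with 2 at an unadjusted p under 0.05 and 0 called under every other setting run, against 0.171% of all genes, and the Lmo4 difference was 0.35 (95% interval 0.083 to 0.61, limma adjusted p = 0.31).

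Lmo3, a LIM-only factor expressed widely in the developing brain, was lower in KO parietal tissue. Because the study concerns a T-box factor, the window before its start site is shown, as the only 1 of the 9 windows given for these genes that holds the T-box core letters AGGTGTGA, printed in capitals. The 250 bases run 5′ to 3′ on the minus strand at chr6:138581969-138582218 (RefSeq, GRCm38.p6), directly upstream of the annotated start, and the letters begin 16 bases before it.

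Lmo3: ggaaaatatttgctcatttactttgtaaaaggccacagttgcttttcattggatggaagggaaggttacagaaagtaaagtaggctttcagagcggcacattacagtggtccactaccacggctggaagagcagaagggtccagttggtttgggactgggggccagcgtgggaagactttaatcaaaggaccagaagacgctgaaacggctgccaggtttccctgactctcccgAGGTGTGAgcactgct

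These letters, read on both strands (TCACACCT on the other), occurred in 419 of 32851 promoter windows of the same table, or 1.28%, each 300 bases long. The windows without them belonged to Lmo1, Lmo4 and Ldb1. Lmo2 and Ldb2 had no window, so their promoters were not read. The match describes the letters only, and binding was not measured here.

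In parietal tissue Lmo3 read 10.27, 10.58, 10.11 and 10.45 on KO arrays and 10.66, 10.77, 10.87 and 10.78 on WT arrays, so the highest KO array lay below the lowest WT array. The difference was -0.42 (SE 0.102, 95% interval -0.63 to -0.21, 1.34-fold lower in KO, limma adjusted p = 0.0246). It held with the Y-linked covariate (-0.47, adjusted p = 0.014) and without the parietal arrays with high Xist (-0.58, adjusted p = 0.0239). The call was lost when 1 of 5 of the 8 arrays was left out, KO arrays 1 or 3 or WT arrays 2, 3 or 4, with adjusted p of 0.0663 to 0.113 and differences of -0.42 to -0.34.

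In the other regions Lmo3 overlapped. Frontal tissue read 10.32, 10.69, 10.58 and 10.55 in KO and 10.47, 10.62, 10.87 and 10.32 in WT (-0.034, 95% interval -0.24 to 0.18). Occipital tissue read 10.45, 10.16, 10.36 and 10.27 in KO and 10.41, 10.28, 10.38 and 10.37 in WT (-0.051, 95% interval -0.26 to 0.16). The test of whether the effect differed between regions did not call Lmo3 (limma adjusted p = 0.355), so its difference in parietal tissue was not shown to be larger than elsewhere. Over the regions it was -0.17 (limma adjusted p = 0.0702), with no overlap of the 4 KO and 4 WT averages.

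In WT tissue Lmo3 was highest in parietal (10.77 ± 0.09, SD, n = 4), then frontal (10.57 ± 0.23) and then occipital tissue (10.36 ± 0.06). Parietal and occipital WT arrays did not overlap (0.41, limma adjusted p = 0.067), and frontal arrays overlapped both. In KO the means were 10.53 ± 0.15 in frontal, 10.35 ± 0.21 in parietal and 10.31 ± 0.12 in occipital tissue, and all 3 overlapped. Lmo3 and Lmo4 thus had opposite differences in parietal tissue, lower and higher in KO.

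Lmo1, a LIM-only factor first known from T-cell leukaemia, was lower in frontal than in occipital tissue. WT frontal tissue read 8.08, 8.11, 7.86 and 7.63, WT parietal tissue 8.21, 8.25, 8.45 and 8.50, and WT occipital tissue 8.65, 8.84, 9.52 and 9.11. The 3 WT regions did not overlap, but the frontal minus parietal difference was not called (-0.43, limma adjusted p = 0.301). Occipital tissue was 2.16-fold higher than frontal tissue (frontal minus occipital -1.11, SE 0.153, 95% interval -1.43 to -0.80, limma adjusted p = 4.54e-05), and Lmo1 was the only 1 of the 6 genes called in that comparison, which called 6.03% of all genes. It was also the only 1 called in WT parietal against occipital tissue (-0.68, limma adjusted p = 0.0373, against 0.451% of all genes). The latter call was lost when any of 6 of the 8 arrays was left out, all but WT occipital arrays 1 and 2 (adjusted p up to 0.159). It was also lost with medians subtracted, no trend, only the arrays compared or no high-Xist arrays (0.0516 to 0.135). The frontal against occipital call held with any 1 array left out (largest adjusted p = 0.000437). It held under every other setting run for it too (largest 0.00625).

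In KO tissue the order was the same and the span smaller. KO frontal tissue read 8.32, 8.34, 8.62 and 8.22, KO parietal tissue 8.34, 8.72, 8.55 and 8.37, and KO occipital tissue 9.24, 8.64, 9.19 and 8.83. Frontal and parietal arrays overlapped, as did parietal and occipital arrays, while frontal and occipital arrays did not. Frontal lay below occipital tissue by -0.60 (limma adjusted p = 0.0257), the only call among the 6 genes there, against 3.22% of all genes. That call was lost without KO frontal arrays 1, 2 or 4 or KO occipital arrays 1 or 3 (adjusted p up to 0.1), and with the Y-linked covariate (adjusted p = 0.103). KO parietal against occipital tissue called 0 of the 6 by limma, with 3 at an unadjusted p under 0.05 and 1 called with array weights, against 0.351% of all genes.

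All 4 KO frontal arrays of Lmo1 lay above all 4 WT frontal arrays, a difference of 0.45 (95% interval 0.14 to 0.77, 1.37-fold, limma adjusted p = 0.0678) that was not called. Parietal and occipital arrays overlapped, with differences of 0.14 (95% interval -0.17 to 0.46) and -0.059 (95% interval -0.37 to 0.26). The frontal minus occipital difference of the effect, which is also the change in the slope from frontal to occipital tissue, was 0.51 (95% interval 0.066 to 0.96, limma adjusted p = 0.211). The smaller span in KO was therefore not shown beyond the spread once all genes were accounted for.

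Lmo2, which joins E-box and GATA factors into 1 complex in blood and vessel cells, was lower in KO by a like amount in each region. Frontal tissue read 8.56, 8.89, 8.75 and 8.62 in KO and 9.21, 8.94, 8.70 and 9.23 in WT. Parietal tissue read 8.41, 9.00, 8.67 and 8.41 in KO and 8.95, 8.91, 8.85 and 8.77 in WT. Occipital tissue read 9.11, 8.44, 8.91 and 8.70 in KO and 9.21, 8.97, 8.96 and 9.24 in WT. The genotypes overlapped in each region, and the differences of -0.31, -0.25 and -0.30 were not called (limma adjusted p = 0.138, 0.648 and 0.402). With array weights the parietal difference was called (-0.35, adjusted p = 0.0341).

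Averaged over regions by replicate number, Lmo2 was 8.70, 8.78, 8.78 and 8.58 in KO and 9.12, 8.94, 8.84 and 9.08 in WT, with no overlap. The difference was -0.29 (SE 0.0667, 95% interval -0.43 to -0.14, 1.22-fold lower in KO, limma adjusted p = 0.0157). The call was lost without the arrays of KO number 1 (limma adjusted p = 0.0522) or KO number 4 (0.0647). With the Y-linked covariate the difference was still called (-0.36, limma adjusted p = 0.0436). That fit used the 24 arrays without averaging, so regions with the same number counted as separate values. Nor can it separate genotype from sex-linked signal within frontal tissue. The F test between regions did not call Lmo2 (limma adjusted p = 0.972), and the 95% interval of its frontal minus parietal effect was -0.46 to 0.33.

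Genes of blood vessel endothelium moved with Lmo2. The mean log2 signal of 8 of 8 listed vessel genes was 7.93 in KO and 8.42 in WT frontal tissue, 7.69 and 7.91 in parietal, and 7.87 and 8.11 in occipital tissue. Of the 8, Kdr and Tie1, both receptor kinases of vessel cells, were called lower in KO frontal tissue, and Kdr over the regions. Across the 24 arrays, which share groups and regions, the vessel mean and Lmo2 had a Pearson r of 0.77. The part of these genes in the Lmo2 difference was not tested. In tissue pieces such as these, fewer cells of a type and less RNA per cell cannot be told apart.

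**Figure D2:**
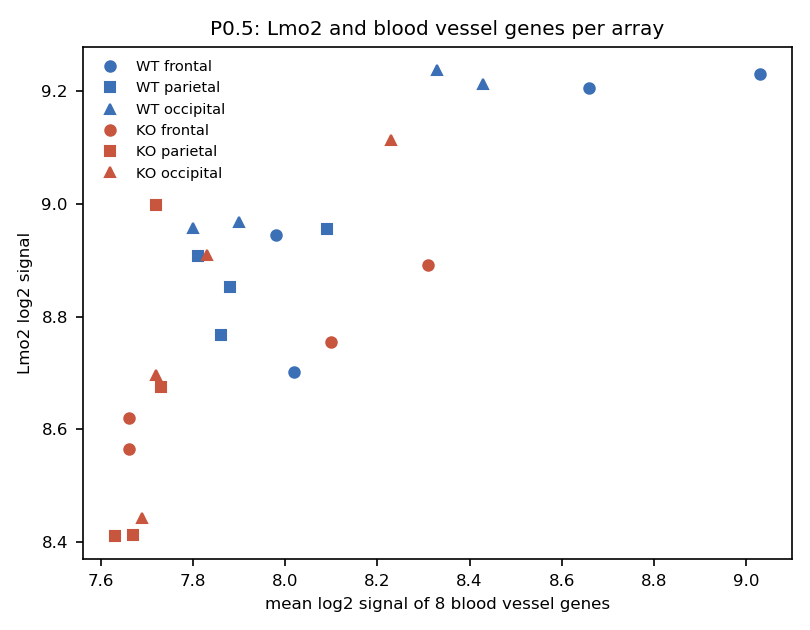
Log2 signal of Lmo2 (vertical axis) against the mean log2 signal of 8 blood vessel genes (horizontal axis), 1 point per P0.5 array, coloured by genotype and shaped by region. Arrays with a high vessel mean tended to have high Lmo2, as the Pearson r of 0.77 over 24 arrays describes, and WT frontal arrays 1 and 4 lie at the far right at 8.66 and 9.03.

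Ldb2, a LIM-binding partner, was lower in KO frontal tissue. There it read 10.75, 11.00, 10.56 and 10.78 on KO arrays and 11.20, 11.19, 11.05 and 11.07 on WT arrays, with no overlap. The difference was -0.35 (SE 0.0916, 95% interval -0.54 to -0.17, 1.28-fold lower in KO, limma adjusted p = 0.0171). It was still called with the Y-linked covariate (-0.49, adjusted p = 0.0388), which cannot separate genotype from sex-linked signal within frontal tissue. The call was lost without KO frontal array 1 (adjusted p = 0.0509) or 3 (0.075).

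Parietal tissue read 11.16, 11.44, 11.14 and 11.21 in KO and 11.06, 11.20, 11.12 and 11.02 in WT, with overlap and a difference of 0.14 (95% interval -0.047 to 0.33). Occipital tissue read 10.76, 11.14, 11.08 and 11.11 in KO and 11.35, 11.39, 11.30 and 11.07 in WT. Of the WT occipital arrays 3 lay above every KO array, and the difference of -0.26 (95% interval -0.44 to -0.068) was not called (limma adjusted p = 0.23). Over the regions the difference was -0.16 (limma adjusted p = 0.179).

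For Ldb2, as for Lmo4, the frontal effect was below the parietal one. The difference of the effects was -0.50 (SE 0.13, 95% interval -0.76 to -0.23), but it was not called after adjustment over all genes (limma adjusted p = 0.414), nor was the F test (limma adjusted p = 0.185). In WT the regional means lay between 11.10 ± 0.08 and 11.28 ± 0.15 (SD, n = 4), highest in occipital tissue, and all pairs overlapped. In KO, parietal tissue (11.24 ± 0.14) lay above occipital (11.02 ± 0.17) and frontal tissue (10.77 ± 0.18), and it overlapped neither. The nearest parietal and occipital arrays were almost equal, at 11.139 and 11.135. KO parietal minus occipital tissue was 0.22 and not called (limma adjusted p = 0.578). KO frontal lay below KO parietal tissue by -0.47 (95% interval -0.65 to -0.28, limma adjusted p = 0.0254), as Lmo4 did. The Ldb2 call was lost without KO frontal arrays 1, 3 or 4 or KO parietal arrays 2 or 4 (adjusted p up to 0.145), with no trend (0.0527) or only the arrays compared (0.0864), and without the high-Xist parietal arrays (-0.38, adjusted p = 0.319).

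Ldb1, the widely expressed partner of the pair, had the narrowest range of these genes at P0.5. Over the 24 arrays it lay between 10.48 and 10.87. KO frontal tissue read 10.65, 10.65, 10.56 and 10.65, and WT frontal tissue 10.75, 10.63, 10.65 and 10.48. KO parietal tissue read 10.60, 10.59, 10.74 and 10.66, and WT parietal tissue 10.61, 10.71, 10.87 and 10.63. In occipital tissue KO arrays lay between 10.58 and 10.64 and WT arrays between 10.58 and 10.69. The genotypes overlapped in all 3 regions. The 95% intervals of the difference were -0.12 to 0.13 in frontal, -0.19 to 0.067 in parietal and -0.17 to 0.08 in occipital tissue, and those of Ldb2 and Lmo4 were wider. No pair of regions was called for Ldb1 in either genotype.

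**Figure D3:**
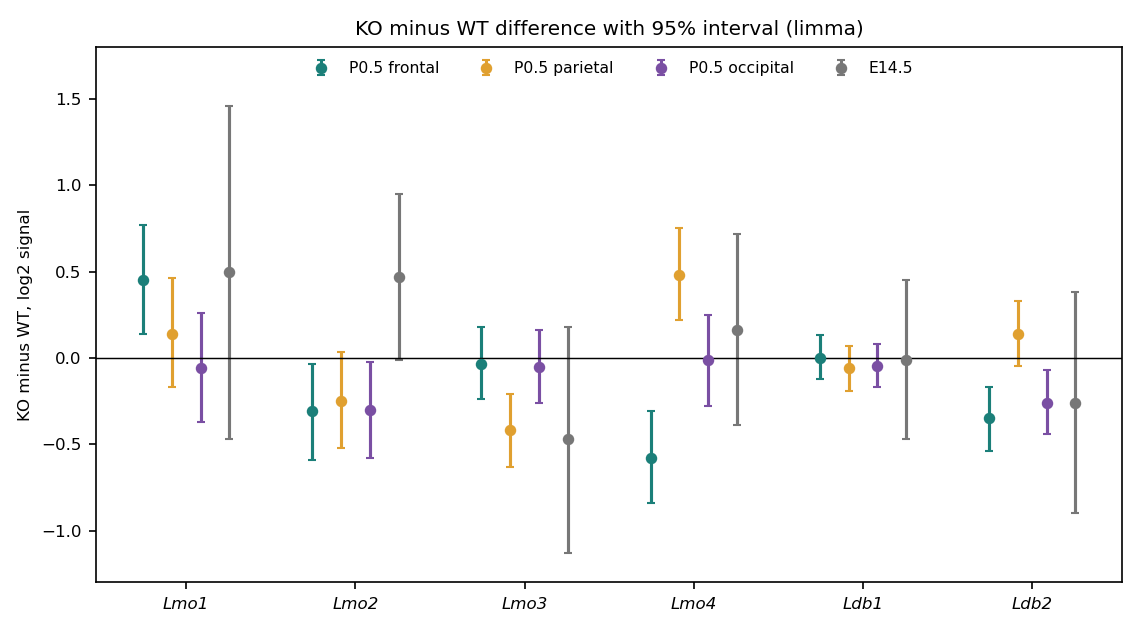
KO minus WT difference in log2 signal for each of the 6 genes, with its 95% interval from limma, in 3 P0.5 regions (4 KO and 4 WT arrays each) and at E14.5 (3 and 3). The Lmo4 intervals lie wholly below 0 in frontal tissue (-0.84 to -0.31) and wholly above 0 in parietal tissue (0.22 to 0.75), Ldb1 is centred near 0, and the E14.5 intervals all include 0.

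The genes most like each of the 6 were listed by Pearson r of log2 signals over the 24 P0.5 arrays, which share groups and regions. For Lmo4 the most alike among all genes was Ldb2 (r = 0.671), before Vamp1 (0.631) and 1700104B16Rik (0.623). For Ldb2 the most alike were Ssbp2 (0.818), Rfx3 (0.803) and Mme (0.802), all above its r with Lmo4. Lmo3 and Lmo4 had an r of -0.506. For Lmo1 they were Car5b (0.885), Mir329 (0.858) and Hdhd2 (0.844), for Lmo2 B130024G19Rik (0.916), Slc40a1 (0.881) and Slc39a8 (0.874), for Lmo3 Morc4 (0.815), Dzip1 (0.767) and Acvr1 (0.751), and for Ldb1 Patz1 (0.762), Faap20 (0.753) and Cfp (0.734).

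Ssbp2 codes for a single-stranded DNA binding protein that attaches to Ldb proteins and protects them from breakdown. It was 1 of 4 listed Ldb cofactors, which were all measured at P0.5 and of which none was called for KO against WT in any region or over the regions (limma; beside 7.52%, 1.81%, 1.34% and 7.46% of all genes). Ssbp2 differences were -0.17 in frontal, 0.11 in parietal and -0.31 in occipital tissue (limma adjusted p = 0.227, 0.9 and 0.114), next to the -0.35, 0.14 and -0.26 of Ldb2. Ssbp2 was lower in WT frontal than in WT occipital tissue (-0.39, limma adjusted p = 0.0152). It was the only 1 of the 4 called there, beside 6.03% of all genes. Ssbp3, a related cofactor, was at -0.18 in frontal tissue (limma adjusted p = 0.0522) and -0.15 over the regions (adjusted p = 0.0513).

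LIM-homeodomain factors bind DNA themselves and share the Ldb proteins with the LIM-only factors. Of 12 listed, 11 were measured at P0.5, and 0 were called for KO against WT in frontal, parietal or occipital tissue or by the F test. Over the regions 1 of 11 was called, Lhx5, which takes part in forebrain patterning and marks Cajal-Retzius cells, and which fell by 0.27 in KO (SE 0.0726, limma adjusted p = 0.0346), beside 7.46% of all genes. Its regional differences were -0.28, -0.33 and -0.21, none called. Lhx2, a selector of cortical identity, was lower in WT frontal than WT occipital tissue (-0.39, limma adjusted p = 0.0165), in the same direction as Lmo1. It was the only 1 of the 11 called in that comparison, which called 6.03% of all genes. In KO tissue Isl1 alone of the 11 was called lower in frontal than in occipital tissue, beside 3.22% of all genes. The median difference over the 11 was -0.14 in frontal and -0.051 over the regions, where the medians of all genes were -0.0337 and -0.0135.

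Basic helix-loop-helix and GATA factors join LIM-only factors in complexes on DNA. Of 13 listed partners of LIM-only factors, most of them of these classes, 12 were measured at P0.5. Nhlh2, a neuronal helix-loop-helix factor, fell in KO frontal tissue by 0.65 (SE 0.134, limma adjusted p = 0.00277) and over the regions by 0.49 (SE 0.0539, limma adjusted p = 5.13e-05), and it was the only 1 of the 12 called for KO against WT in any region or over the regions. This 1 of 12 stands beside 7.52% of all genes in frontal tissue and 7.46% over the regions. In parietal and occipital tissue it was at -0.49 and -0.35 (limma adjusted p = 0.0587 and 0.282). The F test called none of the 12. In KO tissue Tcf4 alone of the 12 was called lower in frontal than in occipital tissue, beside 3.22% of all genes. The median difference over the 12 was -0.11 in frontal tissue and -0.024 over the regions.

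At E14.5, on another array type and with 3 arrays a genotype, 0 of the 6 genes were called by limma, none of the 6 had an unadjusted p under 0.05, and 0% of the 18194 genes were called. Over all genes 1048 had an unadjusted p under 0.05, and array weights, 1 other setting, called 2 genes. Leaving out KO array 3 called 30 and KO array 1 called 2, and none of these was among the 6. Lmo2 read 8.09, 8.65 and 8.43 in KO and 7.74, 7.95 and 8.07 in WT, with no overlap and a difference of 0.47 (95% interval -0.0099 to 0.95, limma adjusted p = 0.863). Its direction was opposite to that at P0.5, and the mean of the 8 vessel genes was 6.79 in KO and 6.58 in WT here, with overlap.

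Other marker means did not overlap at E14.5. The projection neuron mean was 8.72 to 9.31 in KO and 9.49 to 10.18 in WT, the microglia mean 6.34 to 6.85 and 6.04 to 6.32, and the thalamic mean 6.49 to 7.83 and 6.27 to 6.40. The part of these cells in the E14.5 values was not tested.

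Lmo1, Lmo3, Lmo4, Ldb1 and Ldb2 overlapped between genotypes at E14.5. How many of all genes lacked overlap there was not counted. Lmo1 read 10.55, 8.91 and 9.72 in KO and 9.73, 9.03 and 8.93 in WT (0.50, 95% interval -0.47 to 1.46). Lmo3 read 6.40, 6.07 and 6.66 in KO and 7.02, 6.30 and 7.24 in WT (-0.47, 95% interval -1.13 to 0.18), in the direction it had in parietal tissue at P0.5. Lmo4 read 9.02, 8.19 and 8.73 in KO and 8.40, 8.45 and 8.59 in WT. The Lmo4 difference was 0.16 (95% interval -0.39 to 0.72), an interval wide enough to hold an effect of the size seen in parietal tissue.

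Ldb1 read 10.12, 9.77 and 9.59 in KO and 10.04, 9.87 and 9.60 in WT (-0.0094, 95% interval -0.47 to 0.45). Ldb2 read 7.35, 7.10 and 7.53 in KO and 7.86, 7.01 and 7.88 in WT. Its 3 probe sets gave differences of -0.26, -0.57 and -0.25, each with overlapping groups. None of the 12 LIM-homeodomain factors, 4 Ldb cofactors or 12 measured helix-loop-helix, GATA and other partners was called at E14.5 by limma.

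**Figure D4:**
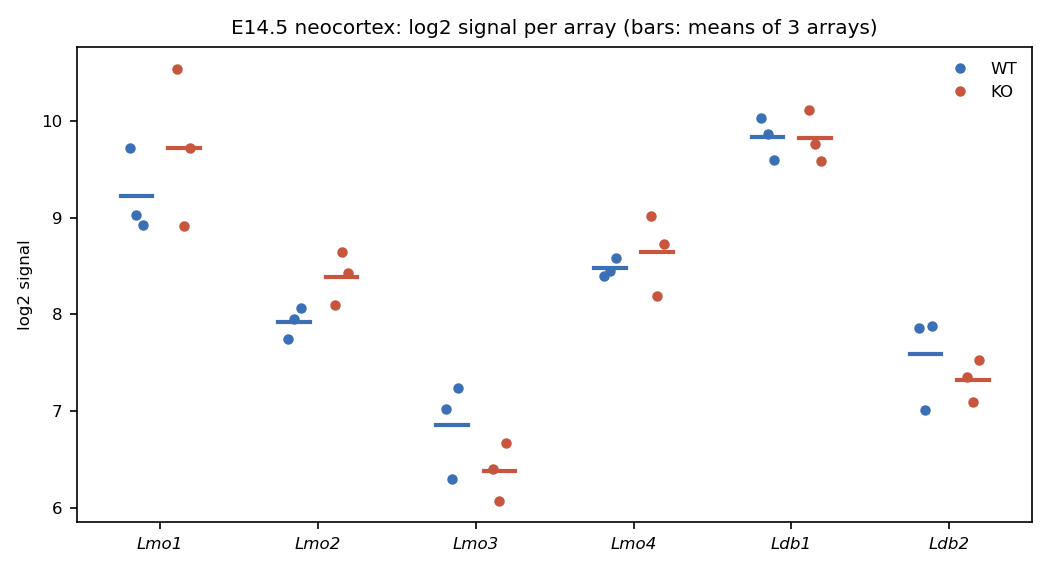
Log2 signal at E14.5 of each of the 6 genes, 1 point per array, for WT (blue) and KO (red), with bars at the means of 3 arrays. For Lmo2 the KO arrays lie at 8.09 to 8.65 and the WT arrays at 7.74 to 8.07, and the groups of the other genes overlap. The share of all genes without overlap was not counted.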

How the data were processed

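RNA was measured on 24 P0.5 and 6 E14.5 Affymetrix arrays. The authors deposited log2 signals per probe set, made with Affymetrix Expression Console 1.1 and RMA per the submitters' processing notes, and these values were not normalised again. Per the labels every sample was run on Mouse Gene 1.0 ST, yet probe sets at E14.5 carry the names of an earlier Affymetrix 3′ design, so each stage had its own fit. Probe sets naming 1 gene were kept, and the one with the highest mean stood for each gene. Precision is limited by the number of arrays.

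limma 3.58.1 in R 4.3.3 (lmFit, eBayes with an intensity trend) fitted 6 groups over the 24 P0.5 arrays, and 2 groups at E14.5. Contrasts gave KO minus WT per region, its difference between regions (F test and pairwise) and regions within a genotype. For KO against WT over regions, arrays of 1 genotype and number were averaged over the 3 regions before fitting. The procedure was tested on simulated data.

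The members and lists were chosen with earlier results of these data known. Named genes are the members, Tbr1, genes of 3 partner lists called for KO against WT, and the 3 genes most like each member. Ssbp3, Lhx2, Isl1, Tcf4 and the single marker genes were named after their values were seen. Mean levels of marker lists (projection neurons, vessels, microglia, striatum, interneurons, thalamus, hippocampus, red blood cells, Y-linked genes) and Xist were read. Residuals of same-numbered arrays correlated at 0.125 to 0.445 at E14.5 (3 of 3 over 0.1) and at 0.124 to 0.276 for WT parietal with WT occipital arrays (4 of 4). In the other pairs of groups not every same-numbered correlation was over 0.1. Such correlations cannot show if same-numbered arrays share a source. Alternatives were averaging all probe sets of a gene, array weights, no intensity trend, array medians subtracted, dropping the 30% of genes with the lowest mean, a replicate block, only the arrays compared, an average of the regional contrasts, the Y-linked level as a covariate, leaving out each array and, chosen after the data were seen, leaving out parietal arrays with Xist over 10.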

Additional observations from a re-analysis of the deposited data

Results flagged for a closer look

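In 3 of 36 groups of 4 arrays, the highest or lowest array stood far from the others, where chance gives about 1 in 20 groups. KO parietal array 2 read 11.94 for Lmo4 while the other 3 read 11.84 (gap over range 0.989). KO frontal array 3 read 10.56 for Ldb1 against 10.65 on the other 3 (0.9). KO occipital array 1 read 10.76 for Ldb2 against 11.08 to 11.14 on the others (0.849).

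The KO effect on Lmo4 differed between regions by limma's F test (adjusted p = 0.0237), and its frontal minus parietal difference was -1.06.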

How the results depend on the processing

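Of 58 values for the 6 genes, 12 were called. The 58 held every KO minus WT difference and F test of these genes. Other contrasts entered only where their main unadjusted limma p was under 0.05. The share called and the sign changes below therefore hold for this choice only. Over 1077 values under other settings 21 changed sign, none of them of a called result, and 72 of 221 values of called results were no longer called.

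The number of the 6 genes called moved as follows. Frontal KO against WT gave 1 (main 2) with only the arrays compared and with the Y-linked covariate. Parietal KO against WT gave 1 (main 2) with no intensity trend, with the covariate and without the high-Xist arrays, and 3 with array weights, which added Lmo2. The over-regions count was 2 (main 1) with array weights. The F test gave 2 (main 1) with array weights, and 0 with the covariate or without the high-Xist arrays. The frontal minus parietal effect gave 2 (main 1) with array weights, and 0 with medians subtracted, no trend, the covariate or without the high-Xist arrays. WT parietal against occipital tissue gave 2 (main 1) with array weights, and 0 with medians subtracted, no trend or without the high-Xist arrays. KO frontal against occipital tissue gave 2 (main 1) with the dimmest 30% left out, array weights or the replicate block, and 0 with the covariate. KO frontal against parietal tissue gave 1 (main 2) with no trend or only the arrays compared, and 0 without the high-Xist arrays. KO parietal against occipital tissue gave 1 (main 0) with array weights.

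Over the regions, leaving out the 3 arrays of 1 genotype and number gave 0 to 2 calls. Leaving out 1 array gave 1 to 3 calls in frontal and 0 to 2 in parietal tissue. It gave 0 to 1 for the F test, for both the frontal minus occipital and the frontal minus parietal effect, for WT parietal against occipital and for KO frontal against occipital tissue, and 0 to 2 for KO frontal against parietal tissue.

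The replicate block added Lmo4 in KO frontal against occipital tissue (adjusted p = 0.0119) and moved no other count. For Lmo2 at E14.5 it gave a limma adjusted p = 0.619 (0.47), and the labels do not say if same-numbered arrays are paired.

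Among the values kept, signs turned only for differences near 0. With array weights Ldb1 in frontal tissue was -0.021 and Lmo4 over the regions 0.014. Leaving out arrays gave -0.12 to 0.066 for Lmo3 and -0.047 to 0.042 for Ldb1 in frontal tissue, -0.19 to 0.1 for Lmo1 and -0.088 to 0.04 for Lmo4 in occipital tissue, -0.13 to 0.02 for Lmo4 over the regions, and -0.023 to 0.39 for Lmo4 and -0.16 to 0.11 for Ldb1 at E14.5. The cause was not tested.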
